A study of Homo sapiens with 12 samples.

Results

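The epithelial-mesenchymal transition genes described here were VIM, CDH1, CDH2, FN1, ZEB1, SNAI2, COL6A3, TGFBI and EMP3, 9 of the 20046 genes with a probe on the array. They were chosen by gene symbol, and every probe with 1 of the 9 symbols was taken, which gave 14 of the 30113 probes with 1 symbol. Whole-transcriptome bead arrays from Illumina were run on 12 cultures, 3 biological replicates for each of 4 groups by the labels. Treated HCC827-Del and treated HCC827-Del-TM were cultured for 72 h with decitabine at 2.5 µM, which blocks DNA methyltransferases, and vorinostat at 1 µM, which blocks histone deacetylases. Control HCC827-Del and control HCC827-Del-TM received DMSO, the solvent. HCC827 is a human lung adenocarcinoma line driven by mutant EGFR, and all 4 groups carry the EGFR alteration labelled L747-S752. The 6 HCC827-Del-TM cultures also carry EGFR T790M, a substitution known for resistance to EGFR inhibitors. The sources used here do not say how the lines were derived or whether each is 1 clone, and the 4 groups include no culture with a single drug.

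In the epithelial-mesenchymal transition, epithelial cells loosen their E-cadherin junctions, replace keratin with vimentin filaments and lay down a matrix rich in fibronectin. Transcription factors of the SNAI and ZEB families drive it in many carcinomas, chiefly by repressing CDH1, and TGF-beta is the best known inducer. In EGFR-mutant lung cancer the transition is known as 1 of the routes to resistance against EGFR inhibitors.

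The arrays detected the epithelial and several mesenchymal transcripts together. After treatment VIM, the gene for vimentin, was 2.10-fold higher in HCC827-Del and 4.42-fold higher in HCC827-Del-TM, and SNAI2, the gene for the repressor SLUG, was 1.62-fold and 3.07-fold higher. The SNAI2 size in HCC827-Del-TM is not exact, since a second probe, near background in the control, gave 2.06-fold. CDH1, the gene for E-cadherin, was not lower but slightly higher, 1.21-fold in HCC827-Del and 1.36-fold in HCC827-Del-TM. Of 6 epithelial markers, CDH1 included, 1 rose and 4 fell in HCC827-Del, beside 24.8% and 26.5% of all genes. In HCC827-Del-TM 3 rose and 1 fell, beside 21.7% and 24.1% of all genes. CDH2 and ZEB1, which encode N-cadherin and the repressor ZEB1, were detected on 0 of 12 arrays. COL6A3 came on in HCC827-Del, while EMP3 fell in HCC827-Del-TM.

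Promoter windows of VIM, COL6A3 and EMP3 are shown because these genes moved most and because decitabine acts on methylation at CG dinucleotides, which are in capitals. Methylation itself was not measured. The windows run from 250 bases before to 50 bases after a transcription start, 5′ to 3′ on the gene's strand, from RefSeq on GRCh38.p14. They lie at chr10:17227991-17228290 (plus strand) for VIM, chr2:237414115-237414414 (minus strand) for COL6A3 and chr19:48325302-48325601 (plus strand) for the upstream of the EMP3 starts.
VIM: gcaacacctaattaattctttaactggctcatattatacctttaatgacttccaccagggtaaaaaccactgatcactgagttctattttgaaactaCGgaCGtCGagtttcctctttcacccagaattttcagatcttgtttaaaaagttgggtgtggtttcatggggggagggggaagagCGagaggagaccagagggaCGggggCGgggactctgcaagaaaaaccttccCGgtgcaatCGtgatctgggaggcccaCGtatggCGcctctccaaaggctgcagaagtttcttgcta
COL6A3: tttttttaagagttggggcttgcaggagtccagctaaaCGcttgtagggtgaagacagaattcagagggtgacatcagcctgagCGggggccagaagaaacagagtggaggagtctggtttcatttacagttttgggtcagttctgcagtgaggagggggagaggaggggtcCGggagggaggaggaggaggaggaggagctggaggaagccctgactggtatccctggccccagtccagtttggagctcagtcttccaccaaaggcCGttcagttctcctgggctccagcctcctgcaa
EMP3: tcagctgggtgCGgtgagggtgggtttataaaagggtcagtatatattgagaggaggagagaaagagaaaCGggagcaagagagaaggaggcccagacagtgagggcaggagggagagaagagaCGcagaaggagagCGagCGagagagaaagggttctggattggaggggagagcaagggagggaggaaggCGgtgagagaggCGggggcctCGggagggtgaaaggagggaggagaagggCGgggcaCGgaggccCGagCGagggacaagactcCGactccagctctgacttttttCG
The VIM window holds 10 CG, the COL6A3 window 4 and the EMP3 window 14, against a median of 14 over 35116 windows of the same length. Of all windows, 43.6% hold fewer CG than that of VIM, 24.5% fewer than that of COL6A3 and 49.7% fewer than that of EMP3. The window of the second EMP3 start, not shown, holds 4. The FN1 window holds 38 CG and the TGFBI window 27. The motif CAGGTG, the E-box that SNAI and ZEB proteins bind, was searched on both strands. It was in none of the VIM, COL6A3, FN1, TGFBI, EMP3 and CDH2 windows and in 2 of the 7 ZEB1 windows, against 20.6% of all windows. CDH1 and SNAI2 had no window in the promoter set used, so neither was searched for the motif.

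Of the 14 probes, 11 passed the filter of detection on at least 3 of 12 arrays (detection p under 0.01), as did 7 of the 9 genes. The CDH2 probe, the ZEB1 probe and 1 FN1 probe did not pass and were not tested. The tested probes of VIM, CDH1, SNAI2, TGFBI and EMP3 were detected on all 12 arrays.

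**Figure D1:**
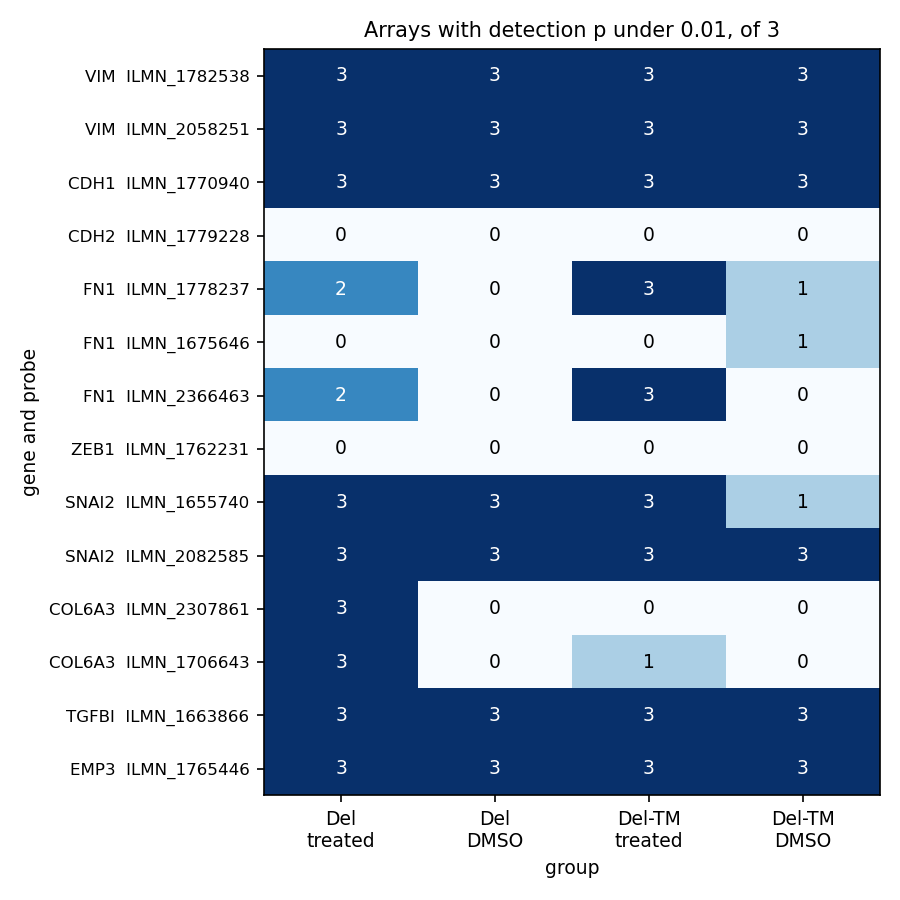
Number of arrays, of 3 per group (columns), on which each of the 14 probes (rows) had a detection p under 0.01. The tested probes of VIM, CDH1, SNAI2, TGFBI and EMP3 show 3 in every column, CDH2 and ZEB1 show 0 in every column, and both COL6A3 probes show 3 in treated HCC827-Del.

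Replicates were tight, with correlations across genes of 0.995 to 0.996 within groups and 0.931 to 0.972 between groups. Between 16251 and 19671 of 47323 probes were detected per array, more in treated HCC827-Del (18617 to 19671) than in its control (17270 to 18055). All 6 epithelial markers (EPCAM, KRT7, KRT8, KRT18, KRT19 and CDH1) were detected on every array. Their summed level (9 probes, linear scale) ran from 23889 to 25326 in treated and 28822 to 31130 in control HCC827-Del, and from 30545 to 32854 in treated and 26848 to 27112 in control HCC827-Del-TM. Of 5 distal lung markers, NKX2-1 and NAPSA were detected on all arrays, SFTPC on 0, and SFTPA1 and SFTPB on all control arrays and 0 treated arrays. Of 9 fibroblast markers, COL1A1 was detected on all arrays, COL1A2 on 1 and LUM on all 3 arrays of treated HCC827-Del, while COL3A1, DCN, PDGFRA, PDGFRB, THY1 and FAP were detected on 0 of 12. Of 5 endothelial markers PECAM1 and VWF were detected in treated HCC827-Del and none elsewhere, with sums of 195 to 211 in treated and 124 to 127 in control HCC827-Del, and of 126 to 135 in treated and 124 to 132 in control HCC827-Del-TM (6 probes). Of the blood cell markers CD14 was detected on all arrays and CD3D on all treated arrays and 1 control array of HCC827-Del-TM, while PTPRC, CD3E and HBB were detected on 0 of 12. The blood cell sums ran from 663 to 682 in treated and 248 to 263 in control HCC827-Del, and from 743 to 754 in treated and 414 to 421 in control HCC827-Del-TM (11 probes). CD14 rose by 1.57 and 1.05 in the lines, and CD3D was called higher in both. The part of other cells in the results below was not tested. In bulk RNA, a change in the share of cells with a transcript and a change per cell cannot be told apart.

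Values below are log2 intensities after background correction and quantile normalization, in which the lowest detected probe of an array lies between 4.76 and 5.16. A gene was called at an adjusted p under 0.05 over 11808 genes, and standard errors (SE) are those of limma's fit to all 12 arrays.

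**Figure D2:**
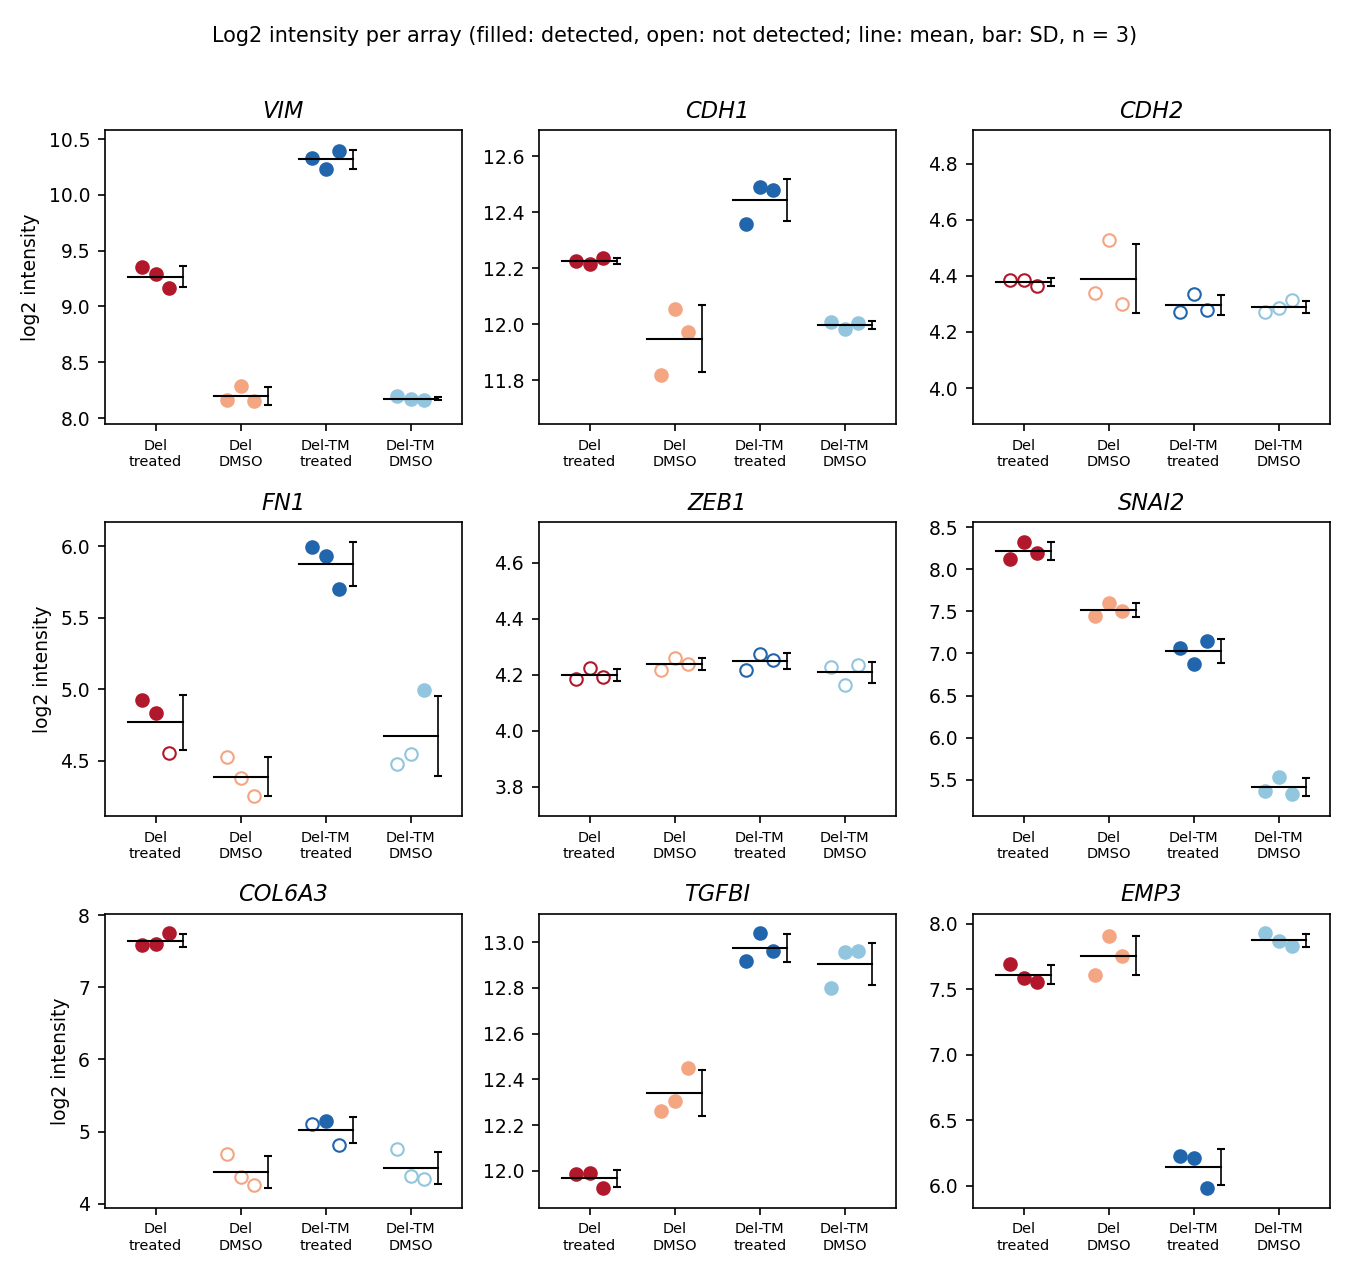
Log2 intensity (y axis) of each gene's tested probe, or its single probe for CDH2 and ZEB1, on every array of the 4 groups (x axis). Filled points are detected, open points are not, lines are means and bars SD (n = 3). VIM and SNAI2 are higher in treated than in control cultures of both lines, COL6A3 is high in treated HCC827-Del, and EMP3 is low in treated HCC827-Del-TM.

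The first question was which of the genes changed after treatment within each line. In HCC827-Del 5 of the 7 tested genes were higher and 1 lower, where 24.8% of all genes were called higher and 26.5% lower (51.3% in all). Treated and control arrays did not overlap for 6 of the 7, as for 58.3% of all genes. In HCC827-Del-TM likewise 5 were higher and 1 lower, with 21.7% of all genes called higher and 24.1% lower (45.8% in all), and 6 of the 7 did not overlap, as for 54.5% of all genes. With backgrounds this high, the counts of called members carry little by themselves. FN1 and COL6A3 passed the filter through groups in which they were high, so the 5 genes detected on all 12 arrays are given apart. Of these, 3 were higher and 1 lower in HCC827-Del, against 22% and 30.5% of the 9197 genes detected on all arrays (52.5% in all). In HCC827-Del-TM also 3 were higher and 1 lower, against 22% and 26.9% (48.9% in all). The median log2 fold change of the 5 was 0.28 in HCC827-Del and 0.45 in HCC827-Del-TM, beside -0.06 and -0.03 over the 9197 genes.

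**Figure D3:**
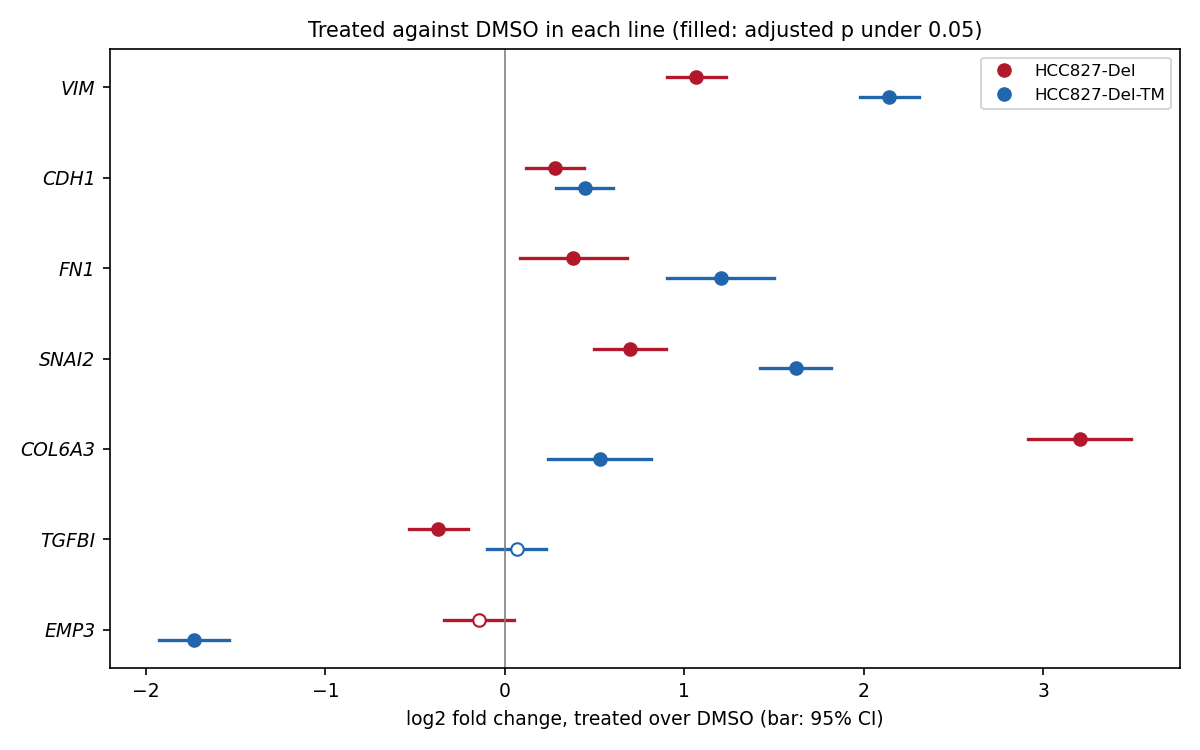
Log2 fold change, treated over DMSO (x axis), of the 7 tested genes (y axis) in HCC827-Del and HCC827-Del-TM, with 95% confidence intervals; filled points passed an adjusted p under 0.05. VIM, CDH1, FN1, SNAI2 and COL6A3 lie above 0 in both lines, while EMP3 is far below 0 in HCC827-Del-TM, at -1.73. The FN1 and COL6A3 points rest on control groups mostly at background and are not exact sizes.

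VIM encodes the intermediate filament of mesenchymal cells. Its tested probe (ILMN_1782538) read 9.35, 9.29 and 9.16 in treated HCC827-Del, against 8.16, 8.29 and 8.15 in control HCC827-Del. It read 10.33, 10.23 and 10.39 in treated HCC827-Del-TM, against 8.19, 8.17 and 8.16 in control HCC827-Del-TM. Every treated array lay above every control array of its line, and all 3 arrays of treated HCC827-Del-TM lay above all others. The log2 fold change was 1.07 in HCC827-Del (SE 0.076, adjusted p = 5.98e-08) and 2.14 in HCC827-Del-TM (SE 0.076, adjusted p = 1.24e-10). The rise was larger in HCC827-Del-TM by 1.08 (SE 0.108, adjusted p = 3.85e-06).

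The second VIM probe (ILMN_2058251) is assigned to the same transcript record and is dimmer. It averaged 8.17 ± 0.20 in treated and 6.94 ± 0.10 in control HCC827-Del, and 9.46 ± 0.10 in treated and 6.83 ± 0.06 in control HCC827-Del-TM (SD, n = 3). Its log2 fold changes were 1.23 and 2.64 (adjusted p = 3.49e-07 and 4.01e-10), and the difference between lines was 1.40 (adjusted p = 6.2e-06). Both probes thus put the groups in 1 order, with treated HCC827-Del-TM highest, treated HCC827-Del next and the controls last. The controls overlapped, at a log2 difference of -0.02 for the tested probe (95% CI -0.19 to 0.14).

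SNAI2 encodes SLUG, a zinc finger repressor of CDH1. Its tested probe (ILMN_2082585) read 8.12, 8.33 and 8.20 in treated HCC827-Del, against 7.45, 7.60 and 7.50 in control HCC827-Del. In HCC827-Del-TM it read 7.07, 6.87 and 7.15 after treatment, against 5.37, 5.53 and 5.33 in the control. The 4 groups did not overlap, and the order ran from treated HCC827-Del through control HCC827-Del and treated HCC827-Del-TM to control HCC827-Del-TM. SNAI2 rose by 0.70 in HCC827-Del (SE 0.0923, adjusted p = 2.66e-05) and by 1.62 in HCC827-Del-TM (SE 0.0923, adjusted p = 1.07e-08). The difference of these effects was 0.92 (adjusted p = 8.07e-05). Without background correction the log2 fold change in HCC827-Del-TM was 0.80 and the difference 0.27, both past the threshold. The difference did not hold with the second SNAI2 probe (ILMN_1655740), which rose by 0.66 and by 1.05 and gave a difference of 0.39 (95% CI 0.04 to 0.73, adjusted p = 0.0715). That probe was detected on 1 of 3 arrays of control HCC827-Del-TM, where it averaged 5.05 ± 0.27 (SD, n = 3), near the lowest detected level.

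CDH1 encodes E-cadherin, the adhesion molecule of epithelial adherens junctions. It read 12.23, 12.21 and 12.24 in treated HCC827-Del, against 11.82, 12.05 and 11.97 in its control. It read 12.36, 12.49 and 12.48 in treated HCC827-Del-TM, against 12.01, 11.98 and 12.00 in its control. Treated arrays lay above control arrays in both lines, by margins smaller than for VIM. The log2 fold changes were 0.28 in HCC827-Del (SE 0.0742, adjusted p = 0.00642) and 0.45 in HCC827-Del-TM (SE 0.0742, adjusted p = 0.000242). The effects did not differ between lines at the threshold (difference 0.17, 95% CI -0.06 to 0.39, adjusted p = 0.22). The call in HCC827-Del ended with median scaling of the arrays (log2 fold change 0.26, adjusted p = 0.0628).

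ZEB1, a repressor of CDH1, and CDH2, the cadherin that replaces CDH1 in the transition, were at background. ZEB1 had raw signals of 83.9 to 89.4 in treated and 86.9 to 91.3 in control HCC827-Del, and of 84.4 to 90.4 in treated and 80.7 to 86.3 in control HCC827-Del-TM. CDH2 had mean raw signals of 96.2 ± 1.73 in treated and 95.5 ± 5.35 in control HCC827-Del, and of 89.8 ± 3.15 in treated and 89.0 ± 2.27 in control HCC827-Del-TM (SD, n = 3). These lie around or below the median signal of all probes, which ran from 95.4 to 104 per array. With 1 probe per gene, the arrays give only an upper bound for these transcripts, and no fold is given.

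COL6A3 encodes a chain of collagen VI, a microfibrillar collagen of connective tissue. Its tested probe (ILMN_1706643) read 7.59, 7.60 and 7.75 in treated HCC827-Del, against 4.69, 4.37 and 4.27 in control HCC827-Del. It read 5.10, 5.15 and 4.81 in treated HCC827-Del-TM, against 4.76, 4.38 and 4.35 in control HCC827-Del-TM. It was detected on all 3 arrays of treated HCC827-Del, on 1 of treated HCC827-Del-TM and on none of the controls. It thus passed the filter through treated HCC827-Del, so p-values of comparisons with that group are not free of this selection. In HCC827-Del the rise was at least 6.40-fold, measured against the lowest detected signal of the control arrays (adjusted p = 2.18e-10). This bound depends on the background correction, without which the log2 fold change was 1.54. In HCC827-Del-TM it averaged 5.02 ± 0.19 after treatment and 4.49 ± 0.23 in the control (SD, n = 3; adjusted p = 0.00512), with no fold given because 2 of 3 treated arrays and all controls were not detected.

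The second COL6A3 probe (ILMN_2307861), assigned to another transcript record, averaged 6.38 ± 0.14 in treated and 4.33 ± 0.08 in control HCC827-Del (SD, n = 3). It rose at least 2.66-fold there (adjusted p = 2.8e-10), though it too passed the filter only through treated HCC827-Del. In HCC827-Del-TM it was not detected, at 4.44 ± 0.05 after treatment and 4.29 ± 0.08 in the control (adjusted p = 0.187), so the small rise in that line rests on 1 probe. The difference of effects was -2.67 for the tested probe (SE 0.188, adjusted p = 1.66e-07) and -1.90 for the second (adjusted p = 7.23e-08). Neither is an exact size, since the low groups are at background. Of the other collagen VI chains, COL6A1 had log2 fold changes of 0.35 in HCC827-Del (adjusted p = 0.0358) and -0.20 in HCC827-Del-TM (adjusted p = 0.232), and COL6A2 was not detected in HCC827-Del and had a log2 fold change of -0.12 in HCC827-Del-TM (adjusted p = 0.423). COL6A5 and COL6A6 did not pass the filter.

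LUM, the gene for the matrix proteoglycan lumican and a fibroblast marker, was detected on all 3 arrays of treated HCC827-Del and on no other array, and COL1A2 on 1 array of that group. The summed level of the 9 fibroblast markers (15 probes, linear scale) ran from 389 to 405 in treated and 333 to 336 in control HCC827-Del, and from 333 to 341 in treated and 336 to 346 in control HCC827-Del-TM. Of the 9, LUM, COL1A1 and COL1A2 were detected on at least 1 array of treated HCC827-Del and the other 6 on none, and COL1A1 fell by 0.43 there.

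FN1 encodes fibronectin, the matrix glycoprotein that integrins bind. The tested probe (ILMN_1778237) read 4.92, 4.83 and 4.55 in treated HCC827-Del, against 4.53, 4.38 and 4.26 in its control. It read 5.99, 5.93 and 5.70 in treated HCC827-Del-TM, against 4.47, 4.55 and 4.99 in its control. Treated HCC827-Del-TM was the 1 group in which all 3 arrays were detected, and it stood above all other groups. The log2 fold change there was 1.20 (SE 0.139, adjusted p = 9.43e-06), and 0.42 without background correction. The second kept probe (ILMN_2366463), detected on none of the control HCC827-Del-TM arrays, rose at least 1.80-fold (adjusted p = 4.4e-08). The kept FN1 probes were detected mostly on treated arrays, chiefly those of HCC827-Del-TM. The p-values of treatment, of the comparison of treated lines and of the difference of effects are thus not free of this selection.

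In HCC827-Del FN1 averaged 4.77 ± 0.19 after treatment and 4.39 ± 0.14 in the control (SD, n = 3; adjusted p = 0.0341). No fold is given, because it was detected on 2 of 3 treated and none of the control arrays, near the lowest detected signal. This call ended without control replicate 2 or 3 (adjusted p = 0.0707 and 0.116), without treated replicate 1 or 2 (0.132 and 0.0973) and with no detection filter (0.0571). The second kept probe averaged 4.78 ± 0.12 in treated and 4.34 ± 0.08 in control cultures (adjusted p = 0.000875). The effect was larger in HCC827-Del-TM by 0.82 (SE 0.197, adjusted p = 0.00419), and by 0.93 with the second probe (adjusted p = 6.35e-05), sizes that also rest on groups at background. The 3 FN1 probes are assigned to 3 transcript records, and the one that failed the filter (ILMN_1675646) was detected on 1 of 12 arrays, with group means of 4.45 to 4.70.

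TGFBI encodes a secreted matrix protein named for its induction by TGF-beta. It read 11.99, 11.99 and 11.92 in treated HCC827-Del, against 12.26, 12.31 and 12.45 in its control. It read 12.92, 13.04 and 12.96 in treated HCC827-Del-TM, against 12.80, 12.96 and 12.96 in its control. TGFBI was the 1 tested gene that fell in HCC827-Del (log2 fold change -0.37, SE 0.0763, adjusted p = 0.00104), without overlap between groups. In HCC827-Del-TM the groups overlapped (0.07, 95% CI -0.10 to 0.23, adjusted p = 0.505). The difference of effects was 0.44 (SE 0.108, adjusted p = 0.00489).

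EMP3 encodes a small tetraspan membrane protein of the PMP22 and EMP family. It read 7.69, 7.58 and 7.56 in treated HCC827-Del, against 7.61, 7.90 and 7.76 in its control, and these groups overlapped (log2 fold change -0.14, 95% CI -0.34 to 0.05, adjusted p = 0.207). It read 6.22, 6.22 and 5.98 in treated HCC827-Del-TM, against 7.93, 7.87 and 7.83 in its control. EMP3 thus fell to 6.14 ± 0.14 in treated HCC827-Del-TM, against 7.87 ± 0.05 in the control (SD, n = 3), a 3.32-fold lower level (adjusted p = 4.99e-09). The difference of effects was -1.59 (SE 0.129, adjusted p = 6.38e-07). Without background correction the log2 fold change in HCC827-Del-TM was -1.08 and the difference -0.97. Its relative EMP1 rose in both lines, by 1.22 in HCC827-Del (adjusted p = 1.13e-08) and by 1.52 in HCC827-Del-TM (adjusted p = 2.71e-09), and EMP2 did not pass the filter and PMP22 had no probe used here.

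The second question was how the lines differed. Among the cultures without drugs 1 of the 7 tested genes was higher and 1 lower in HCC827-Del-TM, with 16.2% of all genes called higher and 20.3% lower (36.5% in all). The lines did not overlap for 2 of the 7, against 47.2% of all genes. Both called genes are among the 5 detected on all arrays, where 17.1% of genes were called higher and 21.3% lower (38.5% in all). SNAI2 was lower by 2.11 on the log2 scale (SE 0.0923, adjusted p = 6.99e-10), with 5.41 ± 0.11 in HCC827-Del-TM and 7.52 ± 0.08 in HCC827-Del (SD, n = 3), and its second probe gave -1.45 (adjusted p = 3.32e-07). Without background correction the tested probe gave -1.12. TGFBI was higher by 0.57 (SE 0.0763, adjusted p = 5.7e-05), with 12.91 ± 0.09 in HCC827-Del-TM and 12.34 ± 0.10 in HCC827-Del. The other 5 did not pass, with log2 differences of 0.05 for CDH1 (95% CI -0.11 to 0.21), 0.12 for EMP3 (95% CI -0.08 to 0.32) and -0.02 for VIM. FN1 (adjusted p = 0.13) was detected on 1 of 3 arrays of HCC827-Del-TM and none of HCC827-Del, and COL6A3 was undetected in both.

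Among treated cultures all 7 tested genes differed between the lines, 4 higher and 3 lower in HCC827-Del-TM, where 29.4% of all genes were higher and 33.7% lower (63.1% in all). None of the 7 overlapped between the lines, as for 67.4% of all genes. Of the 5 detected on all arrays 3 were higher and 2 lower, against 32.8% and 32.2% of such genes (65% in all). VIM was higher in HCC827-Del-TM by 1.05 (SE 0.076, adjusted p = 3.84e-08), FN1 by 1.11 (adjusted p = 9.68e-06), TGFBI by 1.01 (adjusted p = 6.17e-08) and CDH1 by 0.22 (adjusted p = 0.0201). The FN1 value is not an exact size, since FN1 lay near the lowest detected signal in treated HCC827-Del (2 of 3 arrays detected). Its p-value is not free of selection, since FN1 passed the filter chiefly through treated HCC827-Del-TM. Without background correction the FN1 value was 0.39. SNAI2 was lower by 1.19 (adjusted p = 7.99e-08) and EMP3 by 1.47 (adjusted p = 8.1e-09). COL6A3 was lower too, at 5.02 ± 0.19 in treated HCC827-Del-TM, with 1 of 3 arrays detected, and 7.64 ± 0.09 in treated HCC827-Del (SD, n = 3; adjusted p = 1.04e-09). Its second probe, undetected in treated HCC827-Del-TM, was at least 2.53-fold lower there. The CDH1 call ended without treated HCC827-Del replicate 2 (adjusted p = 0.0504), without treated HCC827-Del-TM replicate 2 or 3 (0.0645 and 0.0622) and with median scaling (0.116).

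**Figure D4:**
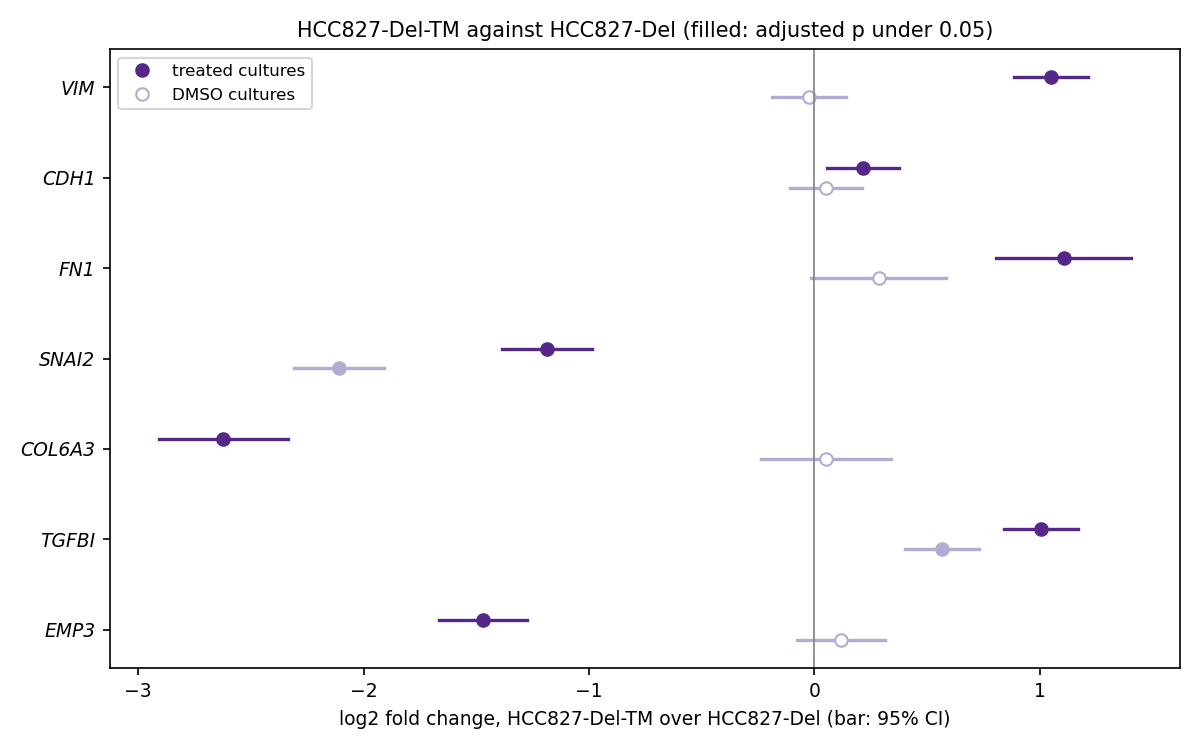
Log2 fold change, HCC827-Del-TM over HCC827-Del (x axis), of the 7 tested genes (y axis) among treated and among DMSO cultures, with 95% confidence intervals; filled points passed an adjusted p under 0.05. SNAI2 lies below 0 and TGFBI above 0 in both comparisons, while VIM, EMP3 and COL6A3 lie at 0.12 or nearer to 0 among DMSO cultures and far from 0 among treated ones.

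These comparisons share arrays with those of treatment, so a gene's values in them are not independent. The difference of treatment effects passed for 6 of the 7 genes, 4 with a larger value in HCC827-Del-TM and 2 with a lower one, while 20.3% of all genes were called higher and 22.3% lower (42.5% in all). Of the 5 detected on all arrays it was 3 and 1, against 22.6% and 20.7% of such genes (43.3% in all). The genes did not form 1 pattern over the groups. VIM, FN1 and CDH1 were highest in treated HCC827-Del-TM, SNAI2 and COL6A3 in treated HCC827-Del, and TGFBI was high in HCC827-Del-TM with or without drugs.

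Genes with a pattern most like each member were taken by Pearson's r of log2 intensity over the 12 arrays, a description that mostly follows the 4 group means. For VIM these were H2BC8 (0.993), SERPINB13 (0.987) and LY96 (0.985), for FN1 EPOR (0.987), RBBP9 (0.981) and IL10RB (0.973), and for CDH1 CAPN8 (0.975), RAB3IP (0.970) and HMOX1 (0.970). For SNAI2 they were EPSTI1 (0.982), CYB561D1 (0.981) and TIMP2 (0.981), and for COL6A3 BEST1 (0.995), MAGEC2 (0.994) and UPP1 (0.993). For TGFBI they were PLCB1 (0.988), MTMR12 (0.988) and ABCA12 (0.987), and for EMP3 CDCA5 (0.988), TYMS (0.987) and SLC2A4RG (0.987). Among the members themselves VIM was closest to CDH1 (0.956), and EMP3 ran opposite to FN1 (-0.921) and VIM (-0.907).

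Other genes of the transition were counted from lists, in which some genes, like COL6A3, passed the filter through 1 group. The counts stand against 24.8% of all genes called higher and 26.5% lower in HCC827-Del, and 21.7% higher and 24.1% lower in HCC827-Del-TM. Of 15 transcription factors known to drive the transition, 14 had a probe and 5 were tested. SNAI1, TWIST1 and ZEB2, the factors most often studied with SNAI2 and ZEB1, did not pass the filter. In HCC827-Del 2 of the 5 rose and 3 fell, with SOX9 at 1.42 and SNAI2 rising, and TCF3 at -1.02, TWIST2 at -0.63 and FOXC2 at -0.36. In HCC827-Del-TM SNAI2 and FOXC2 (0.33) rose and 2 fell, TWIST2 (-0.77) and SOX9, while TCF3 was at -0.20 (adjusted p = 0.171). SOX9 was detected on every HCC827-Del array but on only 9 of 12 arrays in all, so no size is given for HCC827-Del-TM.

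Of 9 tested epithelial splicing and transcription factors, 2 rose and 5 fell in HCC827-Del, with ELF3 at -1.08 (SE 0.0753), the splicing regulator ESRP1 at -0.70 (SE 0.105) and KLF4 at 0.88 (SE 0.127). In HCC827-Del-TM 5 rose and 2 fell, with KLF4 at 0.47, GRHL1 at 0.40 and ELF3 at 0.38. The treatment effect on ELF3 differed between the lines by 1.45 (adjusted p = 2.45e-07). The difference of effects passed for 4 of the 9 genes, close to the 42.5% of all genes. The medians were -0.22 and 0.31, beside -0.03 and -0.01 over all genes.

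Of 16 tested adherens junction and desmosome genes, CDH1 included, 4 rose and 3 fell in HCC827-Del, and 7 rose and 2 fell in HCC827-Del-TM. Plakophilin PKP3 fell by 0.91 and PKP2 rose by 0.88 in HCC827-Del, and the desmosomal genes DSC2 and JUP rose by 0.84 and 0.75 in HCC827-Del-TM. Of 14 tight junction and polarity genes, 3 rose and 6 fell in HCC827-Del and 3 rose and 1 fell in HCC827-Del-TM. CLDN1, the gene for claudin-1, rose in both, by 1.67 and 1.84. The 6 epithelial markers split in HCC827-Del, where CDH1 rose while the keratins KRT7 (-1.30), KRT8, KRT18 (-0.68) and KRT19 (-0.39) fell. In HCC827-Del-TM CDH1, KRT7 (0.36) and KRT19 (0.48) rose and KRT8 (-0.33) fell, and the treatment effect on KRT7 differed between the lines by 1.66 (adjusted p = 1.81e-08). KRT8, a keratin of simple epithelia, averaged 10.36 ± 0.04 in treated and 11.36 ± 0.11 in control HCC827-Del, and 10.53 ± 0.05 in treated and 10.86 ± 0.08 in control HCC827-Del-TM (SD, n = 3).

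Of 19 tested matrix protein genes, FN1, COL6A3 and TGFBI included, 12 rose and 3 fell in HCC827-Del, where the median was 0.57. Among the 8 of them detected on all 12 arrays, 3 rose and 3 fell. The proteoglycan gene BGN rose by 3.02 (SE 0.116), tenascin TNC by 1.08 and fibulin FBLN1 by 1.01. In HCC827-Del-TM 5 rose and 2 fell, with a median of 0.12, and TNC rose by 1.08 there as well. TNC was also 2.09 higher in control HCC827-Del-TM than in control HCC827-Del (adjusted p = 3.55e-10).

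Integrins and other matrix receptors rose in 13 of 15 cases and fell in none in HCC827-Del-TM (median 0.39), and rose in 6 and fell in 6 in HCC827-Del (median 0.06), where 21.7% of all genes were called higher in HCC827-Del-TM and 24.8% in HCC827-Del. ITGA5, the subunit of the classical fibronectin receptor, rose by 1.71 (SE 0.0834) in HCC827-Del and by 1.61 (SE 0.0834) in HCC827-Del-TM. SDC1, the gene for the epithelial proteoglycan syndecan-1, fell by 0.95 in HCC827-Del, and its treatment effect differed between the lines by 1.33 (adjusted p = 6.14e-06). Of 18 cytoskeletal genes of mesenchymal cells, 11 rose and 4 fell in HCC827-Del and 10 rose and 2 fell in HCC827-Del-TM, with 51.3% and 45.8% of all genes called in either direction. S100A4, also called fibroblast-specific protein, rose by 2.32 and 1.75, and SPOCK1 by 1.33 and 0.93. Of 3 tested mesenchymal cadherins and intermediate filaments, 3 rose in HCC827-Del, and 2 rose and 0 fell in HCC827-Del-TM. Only VIM among them was detected on all 12 arrays. Between treated lines 1 was higher and 2 lower in HCC827-Del-TM, where 29.4% of all genes were higher and 33.7% lower.

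**Figure D5:**
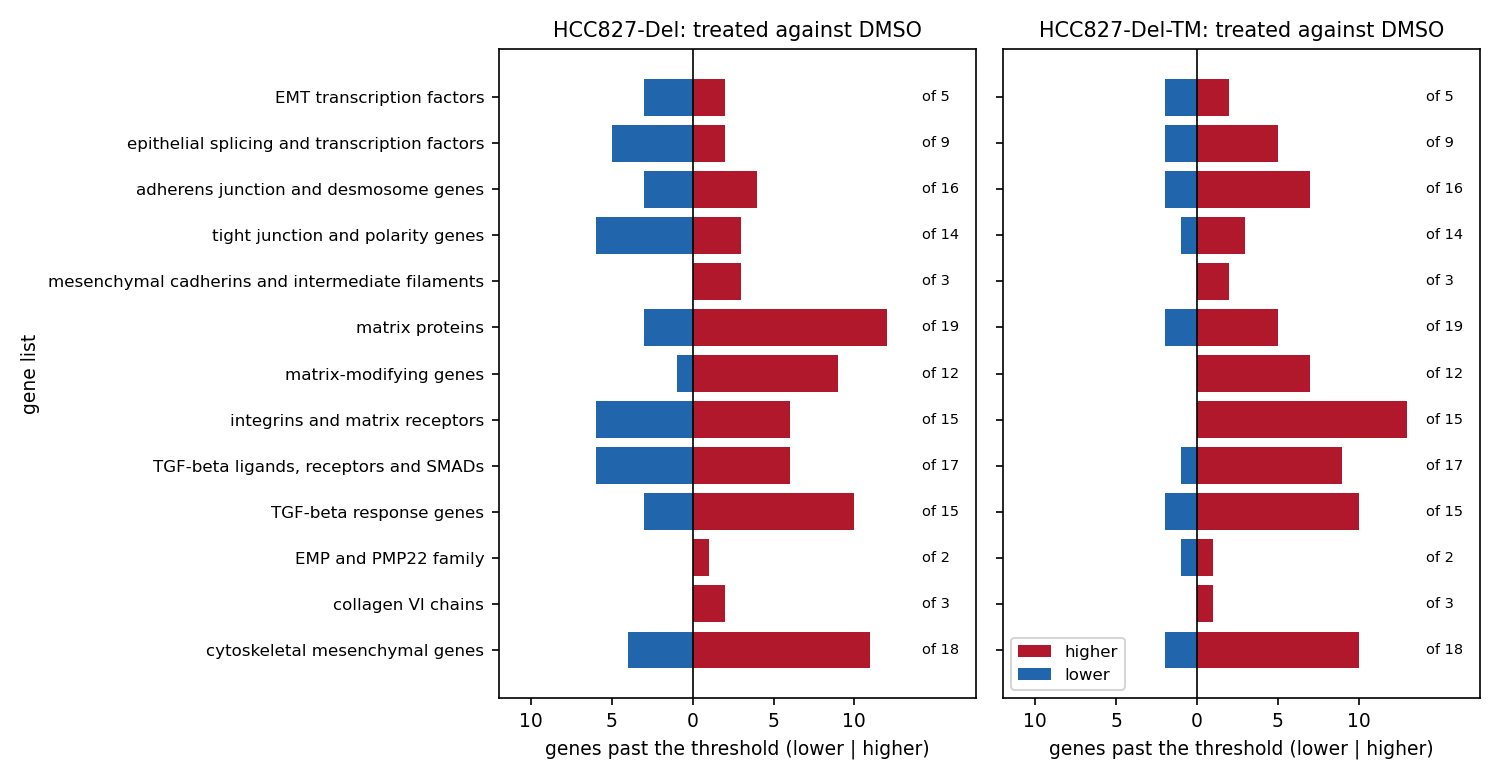
Number of genes past an adjusted p under 0.05 in each list (rows), higher to the right and lower to the left (x axis), after treatment in HCC827-Del and HCC827-Del-TM; the number tested stands at the right. Integrins and matrix receptors show 13 higher and 0 lower in HCC827-Del-TM, and matrix proteins 12 higher and 3 lower in HCC827-Del. Of the 8 matrix protein genes detected on all 12 arrays, 3 were higher and 3 lower in HCC827-Del. Of all genes, 21.7% were called higher and 24.1% lower in HCC827-Del-TM, and 24.8% and 26.5% in HCC827-Del.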

How the data were processed

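Expression was measured on 12 Illumina bead arrays, 3 per group. The deposited table gives each probe's signal intensity without background subtraction or normalization, judged from its header and values, and a detection p-value beside each. The authors also deposited log2 values, quantile-normalized as all 12 sorted columns are identical. The sources used here name no software for this. Intensities were corrected with nec (offset 16) in limma 3.58.1 under R 4.3.3, quantile-normalized and set on a log2 scale. Probes were named by a platform table with symbols updated through Entrez IDs (30113 of 47323 probes had 1 symbol, 8 several and 17202 none). Probes detected (p under 0.01) on at least 3 arrays were kept, and the kept probe with the highest mean stood for a gene. Second probes were adjusted over the 15667 kept probes.

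limma's lmFit and eBayes were fitted to all 12 arrays with 1 coefficient per group, and p-values were two-sided and adjusted by Benjamini-Hochberg. Where a probe was undetected in 1 group, "at least" gives the bright mean over that group's lowest detected signals. Named were all 9 members, up to 3 called genes per list with the largest change among those detected on all arrays of both groups, 3 genes most like each member, and genes chosen after their values were seen (SNAI1, TWIST1, ZEB2, EMP2, the collagen VI chains, PMP22, TCF3 and SOX9 in HCC827-Del-TM, TWIST2 and FOXC2 in HCC827-Del, and markers). The members and lists were chosen with earlier results of these data known. Same-numbered replicates were not paired: their deviations from group means correlated at -0.02 to 0.05 across genes. The fit was tested on simulated data. The number of arrays limits the precision, with a median SE of 0.0955 between groups and 0.135 for the difference of effects.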

Additional observations from a re-analysis of the deposited data

Results flagged for a closer look

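The treatment effect differed between the lines, by limma's test of the difference, for 6 of the 7 tested genes, where 42.5% of all genes were called. Of the 5 detected on all 12 arrays it differed for 4, against 43.3% of such genes. The log2 effect in HCC827-Del-TM minus that in HCC827-Del was 1.08 for VIM, 0.92 for SNAI2, 0.82 for FN1 and 0.44 for TGFBI, and -1.59 for EMP3 and -2.67 for COL6A3. For TGFBI the gene fell in HCC827-Del and did not pass the threshold in HCC827-Del-TM. For COL6A3 and FN1 the sizes are limited by groups at background, and the p-values are not free of selection by the filter. For SNAI2 the second probe did not pass. These differences count in the same arrays as the treatment effects and are not further evidence for them.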

How the results depend on the processing

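The number of members past the threshold stayed within 1.5 times its value under each alternative run, with ranges of 4 to 6 for treatment in HCC827-Del, 4 to 6 in HCC827-Del-TM, 2 to 3 between control lines, 5 to 7 between treated lines and 4 to 6 for the difference of effects. The lowest counts came from the 5 genes detected on all 12 arrays, where FN1 and COL6A3 are not tested. Of 823 single-gene values under alternatives, 810 kept their side of the threshold, 12 lost and 1 gained it, and no called value changed sign. Sizes did move: without background correction, and nearly equally with the authors' log2 values, 14 called values of SNAI2, FN1, COL6A3 and EMP3 were smaller by over 1.5 times. Between treated lines these were FN1 (0.39), COL6A3 (-1.34) and EMP3 (-0.88), and for the difference of effects FN1 (0.27), SNAI2 (0.27), COL6A3 (-1.37) and EMP3 (-0.97). All 14 stayed past the threshold. Those lost were FN1 in HCC827-Del, CDH1 in HCC827-Del and between treated lines, and, with their second probes, COL6A3 in HCC827-Del-TM and the difference of effects for SNAI2. The one gained was FN1 between control lines with the mean over its probes (adjusted p = 0.044). With the replicate block, 6, 6, 2, 7 and 6 genes passed in the 5 comparisons, as without it, so it changed no call. Leaving out each array gave 5 to 6, 6, 2, 6 to 7 and 6. With median scaling the median of all genes moved to -0.18 between treated lines and -0.10 for the difference of effects, and 61.2%, 30.3% and 32.2% of called genes were higher for treatment in HCC827-Del, between treated lines and for the difference, in place of 48.4%, 46.6% and 47.6%. No fit blocked on chip was made, because the headers name no chip. Signal over background limits CDH2, ZEB1, FN1 and COL6A3.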

Other observations

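Of 15 TGF-beta response genes, 10 rose and 3 fell in treated HCC827-Del and 10 rose and 2 fell in treated HCC827-Del-TM (medians 0.44 and 0.29, beside -0.03 and -0.01 over all genes), where 24.8% of all genes were called higher and 26.5% lower in HCC827-Del, and 21.7% and 24.1% in HCC827-Del-TM. The matricellular gene CCN2 rose by 1.84 and the smooth muscle gene TAGLN by 1.39 in HCC827-Del, where ID1, an inhibitor of bHLH factors, fell by 1.35. The treatment effect in HCC827-Del-TM minus that in HCC827-Del was -2.11 for CCN2 (adjusted p = 9.62e-08) and 1.64 for ID1 (adjusted p = 2.35e-08). Of 17 ligands, receptors and SMADs, 6 rose and 6 fell in HCC827-Del and 9 rose and 1 fell in HCC827-Del-TM, with BMP2 rising in both, by 0.70 and 1.61.

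Of 12 matrix-modifying genes, 9 rose and 1 fell in HCC827-Del and 7 rose and 0 fell in HCC827-Del-TM, beside 24.8% of all genes higher and 26.5% lower in HCC827-Del and 21.7% and 24.1% in HCC827-Del-TM. The plasminogen activator gene PLAT rose by 2.63 and 0.94, and MMP9, which encodes a gelatinase, by 1.88 in HCC827-Del. MMP7, the gene for matrilysin, rose by 2.59 in HCC827-Del-TM, and its treatment effect differed between the lines by 2.31 (adjusted p = 2.47e-08).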
